A study of Mus musculus with 24 samples.

Results

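The 8 genes Tm4sf1, Mgp, Igfbp7, Gng11, Cd93, Eng, Cd34 and Ramp2 were followed in the retina of mouse pups kept in raised oxygen or in room air. They were chosen by their measured values, as genes of vessel surfaces and secreted vessel proteins whose signal was lower late in hyperoxia, and the differences between the oxygen conditions are therefore described here with no test. The array carried 13 probe sets that the platform annotation assigns to these 8 genes, of 22690 in the deposited table. Of the 13, 8 passed the filter on dim probe sets, 1 for each gene, among 15838 tested.

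The samples were retinas of C57Bl/6 pups, with total RNA on 1 array per sample and 3 arrays in each of 8 groups. The hyperoxia groups were taken at postnatal days 7, 8, 10 and 12, after 12, 24, 72 and 120 hours of hyperoxia. The room air groups were taken at the same 4 ages. In the hyperoxia groups a later age is also a longer exposure, and the effects of both cannot be told apart. No transgene or drug is named in the labels. They give neither the oxygen concentration nor the number of pups behind an array, nor whether replicates came from separate animals, so a p-value here refers to the spread among these arrays, part of which may be technical. Intensities are given as log2 values after quantile normalization, with the floor of the scale at 7.10. A difference is hyperoxia minus room air, with its standard error from a limma fit over all 24 arrays.

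The retina of a newborn mouse has few vessels of its own. They grow outward over its surface and then down into it while the pup matures, and raised oxygen at this age stops that growth and removes young capillaries. The wall of such a vessel is made of endothelial cells, which carry receptors on their surface, and of the matrix and pericytes around them. Because whole retina was measured, fewer vessel cells and less RNA in each cell cannot be told apart.

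The genes have different places in the vessel wall. Cd93 is a C-type lectin-like receptor of endothelium, Eng (endoglin) a co-receptor for ligands of the TGF-beta and BMP family, Cd34 a sialomucin of capillary endothelium and of blood progenitors, and Ramp2 the partner that turns the receptor Calcrl into a receptor for adrenomedullin. Tm4sf1 is a membrane protein with several passes through the membrane, abundant in endothelium. Mgp, the matrix Gla protein, is a secreted inhibitor of calcification that binds BMPs, and Igfbp7 is a secreted protein of vessel walls. Gng11, a gamma subunit of G proteins, lies on the inner face of the membrane, so it is neither a surface nor a secreted protein. Vessel RNA was measurable: Pecam1 and Cdh5, which mark endothelium, were above the floor on 12 of 12 hyperoxia arrays and 12 of 12 room air arrays. Their oxygen differences are given with the endothelial list below.

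Promoter sequences are shown as a description. The 8 genes were chosen for a lower signal in hyperoxia, so their shared direction between the groups comes from the choice. The RefSeq promoter table (GRCm38.p6) held 4 of the genes, each with 250 bases before and 50 bases after the start of transcription, printed here on the strand of the gene. Capitals mark the ETS letters AGGAAGT, a motif class bound by endothelial transcription factors, and the hypoxia response core letters ACGTG or GCGTG, on either strand. The Cd34 window holds none of them and is shown for comparison.
Tm4sf1, chr3:57301939-57302238, minus strand: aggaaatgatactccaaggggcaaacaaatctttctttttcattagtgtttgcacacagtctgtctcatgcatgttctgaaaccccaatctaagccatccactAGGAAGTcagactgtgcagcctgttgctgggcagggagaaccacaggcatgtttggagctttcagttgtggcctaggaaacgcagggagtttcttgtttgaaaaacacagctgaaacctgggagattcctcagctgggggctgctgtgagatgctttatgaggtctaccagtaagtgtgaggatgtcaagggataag
Igfbp7, chr5:77407996-77408295, minus strand: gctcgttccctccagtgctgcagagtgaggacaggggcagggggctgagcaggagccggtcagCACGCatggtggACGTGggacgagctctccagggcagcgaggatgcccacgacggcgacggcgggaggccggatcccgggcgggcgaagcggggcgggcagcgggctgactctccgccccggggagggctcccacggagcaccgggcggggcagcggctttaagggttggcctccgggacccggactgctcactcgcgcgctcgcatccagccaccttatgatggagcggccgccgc
Eng, chr2:32646345-32646644, plus strand: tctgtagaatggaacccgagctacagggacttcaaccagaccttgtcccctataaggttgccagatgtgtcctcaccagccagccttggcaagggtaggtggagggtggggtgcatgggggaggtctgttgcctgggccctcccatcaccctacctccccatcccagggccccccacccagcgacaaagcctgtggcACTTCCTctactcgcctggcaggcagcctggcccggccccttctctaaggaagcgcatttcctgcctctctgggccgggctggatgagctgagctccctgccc
Cd34, chr1:194938571-194938870, plus strand: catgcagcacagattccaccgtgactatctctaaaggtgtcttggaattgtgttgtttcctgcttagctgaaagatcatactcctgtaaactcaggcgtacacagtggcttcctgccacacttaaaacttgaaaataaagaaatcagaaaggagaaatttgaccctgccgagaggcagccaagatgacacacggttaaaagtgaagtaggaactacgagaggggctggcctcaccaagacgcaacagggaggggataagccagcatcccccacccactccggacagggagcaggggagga

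The letters AGGAAGT stood in the windows of Tm4sf1 (147 bases before the start) and Eng (53 bases before it, on the other strand), against 9.35% of all 32851 promoters in the table. The other ETS form, CCGGAAG, which shares a core with AGGAAGT, was in 0 of the 4 and in 8.86% of all. Only the Igfbp7 window held a hypoxia response core, with ACGTG and GCGTG 1 time each. Their shares among all promoters were 19.6% and 32.4%. Igfbp7 was also the window with GGGCGG, the SP1 letters (35.7% of all), and it had the highest GC content of the 4, at 73.3%, beside 47.3% for Tm4sf1, 63.3% for Eng and a median of 52.7% over all. CACCC, the KLF letters, was in the windows of Eng and Cd34 (57.5% of all). The GATA letters AGATAA, held by 11.2% of all promoters, were in 0 of the 4. So was the TATA box form TATAAA, held by 13.6%. The SMAD forms searched were GTCTAG, held by 8.37% of all, along with GGCGCC, held by 11.9%, and both were in 0 of the 4. Both strands were searched. No letter motif of those searched was in all 4 windows.

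Among the surface receptors, Cd93 had the largest difference. At day 10 its log2 intensities were 9.24, 9.22 and 8.81 in hyperoxia, against 10.72, 10.39 and 10.04 in room air. At day 12 they were 9.43, 9.74 and 8.46 in hyperoxia, against 10.22, 10.24 and 10.05 in room air. Every hyperoxia array lay below every room air array at both ages, and 1 hyperoxia array of day 12 lay far below the other 2 of its group. The difference was -0.58 ± 0.28 at day 7, -0.65 ± 0.28 at day 8, -1.29 ± 0.28 at day 10 and -0.96 ± 0.28 at day 12. Without the low array, hyperoxia day 12 replicate 3, the day 12 difference was -0.59.

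Eng followed another course, with little difference at the first age. Its day 7 values were 9.41, 9.14 and 8.86 in hyperoxia, against 9.32, 9.54 and 8.88 in room air. These groups overlapped, with a difference of -0.11 ± 0.22. At day 10 the values were 9.13, 9.08 and 9.01 in hyperoxia, against 10.56, 10.06 and 9.55 in room air. At day 12 they were 9.25, 9.18 and 8.91 in hyperoxia, against 10.14, 10.00 and 10.00 in room air. The late groups did not overlap. The differences were -0.51 ± 0.22 at day 8, -0.98 ± 0.22 at day 10 and -0.93 ± 0.22 at day 12. The hyperoxia means of Eng stayed between 8.98 and 9.14 over the 4 ages, while the room air mean was 9.25 ± 0.33 at day 7 and 10.05 ± 0.08 at day 12 (SD, n = 3).

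For Cd34 the word late does not describe the data. Its difference was -0.50 ± 0.19 at day 7, -0.54 ± 0.19 at day 8, -0.59 ± 0.19 at day 10 and -0.45 ± 0.19 at day 12. The mean of the late differences minus the mean of the early ones was 0.00 ± 0.19. The day 7 values were 8.74, 8.76 and 8.37 in hyperoxia, against 9.24, 9.06 and 9.07 in room air. At day 10 they were 8.69, 8.71 and 8.73 in hyperoxia, against 9.56, 9.57 and 8.75 in room air. Cd34 was the 1 gene of the 8 whose hyperoxia arrays lay below all room air arrays at each of the 4 ages, as was true of 0.0884% of all tested probe sets. The gap was narrow at day 10, where room air replicate 3 stood at 8.75, and at day 12, where room air replicate 2 stood at 8.91 and hyperoxia replicate 1 at 8.88. In the deposited intensities, before quantile normalization, the Cd34 groups overlapped at both ages: room air replicate 3 of day 10, at 394, was below the 3 hyperoxia arrays (442, 430 and 426), and room air replicate 2 of day 12, at 477.4, was just below hyperoxia replicate 2, at 477.5.

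Ramp2 was close to Cd34 in shape. Its difference was -0.23 ± 0.17 at day 7 and then -0.59 ± 0.17, -0.64 ± 0.17 and -0.58 ± 0.17 at days 8, 10 and 12. At day 10 the values were 10.36, 10.36 and 10.32 in hyperoxia, against 11.37, 10.88 and 10.71 in room air. At day 12 they were 10.48, 10.44 and 10.24 in hyperoxia, against 11.11, 11.08 and 10.70 in room air. The hyperoxia arrays of day 10 were nearly equal, and the spread between replicates lay in room air. The late minus early difference was -0.20 ± 0.17.

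Tm4sf1 had the largest day 10 difference of the 8. The values there were 8.15, 7.21 and 8.41 in hyperoxia, against 9.79, 9.38 and 9.43 in room air. Hyperoxia replicate 2 lay nearest the floor of the scale. The difference was -1.61 ± 0.24, a signal 3.06-fold lower, and -1.26 without that array. At day 12 the values were 8.70, 9.03 and 8.94 in hyperoxia, against 10.07, 9.73 and 9.76 in room air, a difference of -0.96 ± 0.24. The day 7 and day 8 differences were smaller, at -0.49 ± 0.24 and -0.40 ± 0.24. In deposited units Tm4sf1 averaged 507 ± 81.0 in hyperoxia at day 12 and 908 ± 108 in room air (SD, n = 3 each).

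The secreted genes Mgp and Igfbp7 had their difference mainly at day 10. Mgp then had 8.99, 8.67 and 8.12 in hyperoxia, against 10.03, 9.87 and 9.95 in room air. Its difference was -1.35 ± 0.24, beside -0.12 ± 0.24 at day 7, -0.28 ± 0.24 at day 8 and -0.54 ± 0.24 at day 12. At day 12 Mgp had 9.24, 9.38 and 9.39 in hyperoxia, against 9.94, 9.98 and 9.71 in room air, so the groups were closer than at day 10 but still apart. Its day 7 groups overlapped, with hyperoxia replicate 2, at 9.80, as the highest of the 6 arrays.

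Igfbp7 had 11.13, 11.38 and 11.16 at day 10 in hyperoxia, against 12.83, 12.14 and 12.72 in room air, a difference of -1.34 ± 0.24. At day 12 it had 11.42, 11.96 and 12.60 in hyperoxia, against 12.25, 12.64 and 12.46 in room air. After normalization these day 12 groups overlapped, as for none of the other 7 genes at that age (Cd34 overlapped in deposited intensities). The difference there was -0.46 ± 0.24, and it was -0.17 without hyperoxia replicate 1 and -0.76 without hyperoxia replicate 3. At days 7 and 8 it was -0.32 ± 0.24 and -0.50 ± 0.24.

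Gng11 had the smallest standard error of the 8. At day 10 it had 10.03, 9.98 and 10.32 in hyperoxia, against 11.02, 10.91 and 10.78 in room air. At day 12 it had 10.27, 10.29 and 10.50 in hyperoxia, against 11.09, 10.96 and 10.82 in room air. The groups were apart at both ages, by -0.80 ± 0.15 and -0.60 ± 0.15. At days 7 and 8 the difference was -0.28 ± 0.15 at each.

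**Figure D1:**
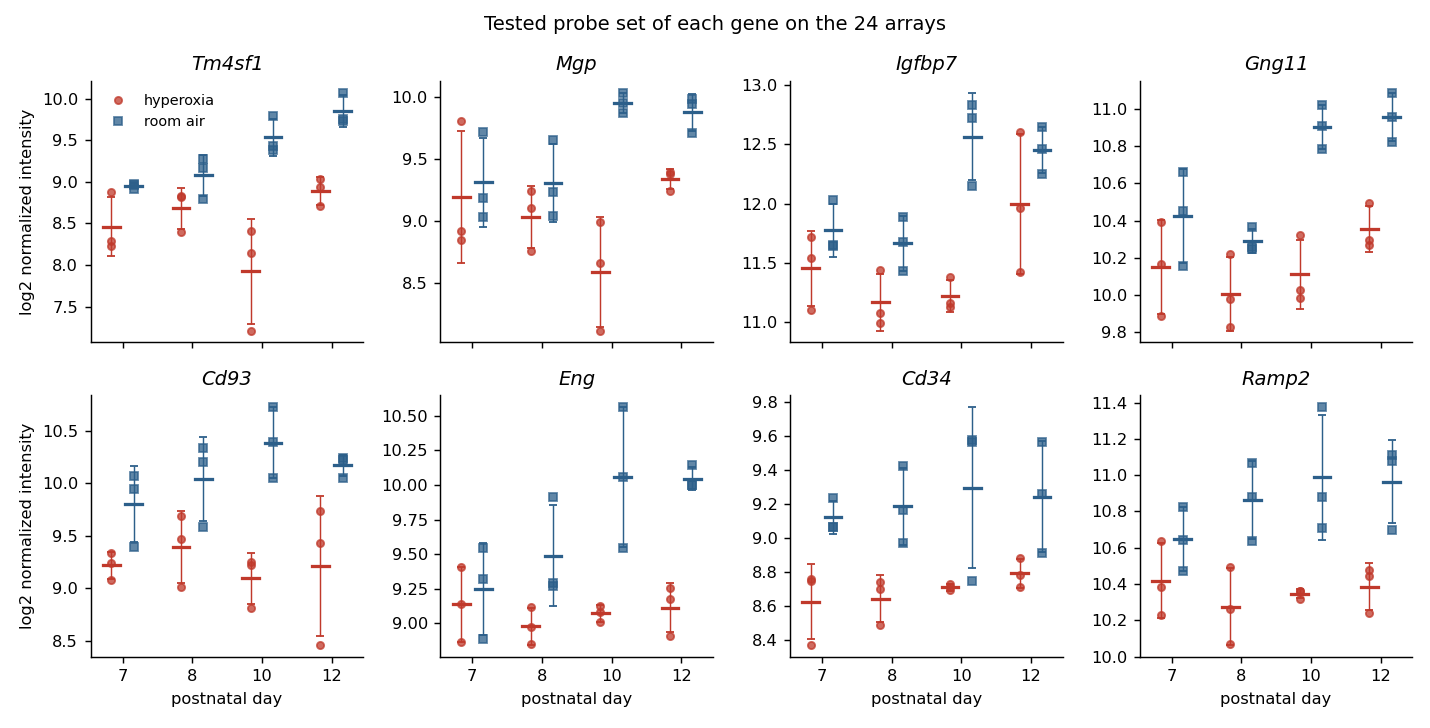
Log2 normalized intensity of the tested probe set of each gene on the 24 arrays by postnatal day, hyperoxia as circles on the left and room air as squares on the right. Points are arrays, horizontal lines are group means and bars are SD (n = 3). At day 10 all hyperoxia points lie below all room air points for the 8 genes, while at day 7 they do for 3.

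Over the 8 genes the median difference was -0.30 at day 7, -0.50 at day 8, -1.14 at day 10 and -0.59 at day 12. The medians over all 9266 tested genes were 0.02, -0.0029, -0.02 and -0.0066 at these ages. All 8 differences were negative at every age. The hyperoxia arrays lay below all room air arrays for 3 genes at day 7, 4 at day 8, 8 at day 10 and 7 at day 12. Of all tested probe sets, 2.93%, 5.5%, 11.9% and 6.68% did so at these ages. Since the genes were chosen for this contrast, these counts describe the choice. The day 7 median was -0.18 without room air day 7 replicate 2, and without that array the day 7 difference was 0.08 for Mgp and 0.04 for Eng.

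**Figure D2:**
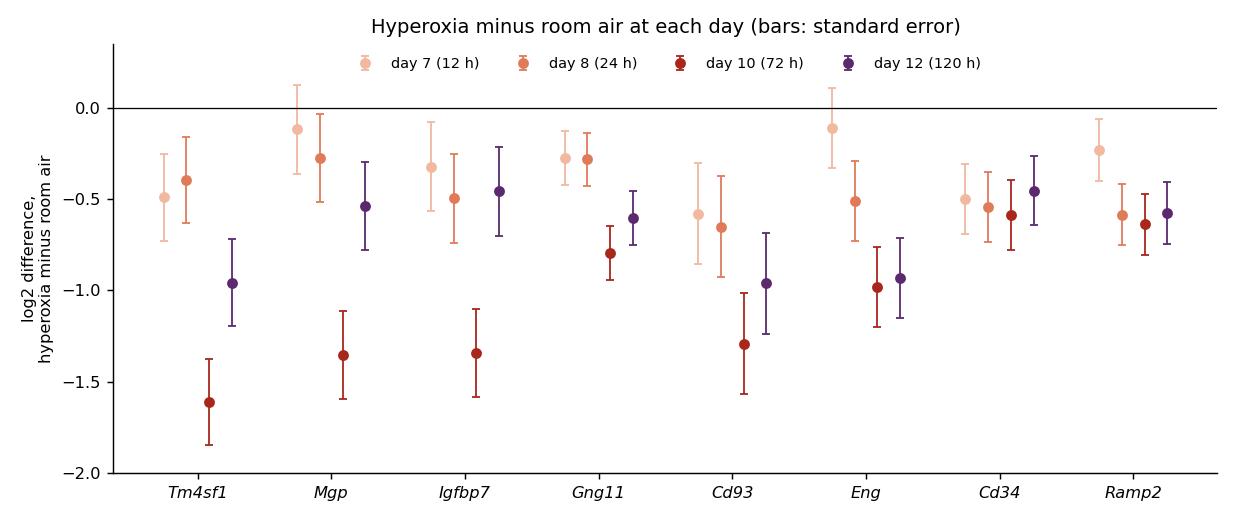
Log2 difference, hyperoxia minus room air, of each gene at days 7, 8, 10 and 12 (points) with the standard error of the fit (bars). Tm4sf1, Mgp, Igfbp7 and Cd93 are lowest at day 10, between -1.61 and -1.29, while Cd34 is near -0.5 at each of the 4 ages.

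The remaining 5 probe sets of these genes were too dim to test. The second Tm4sf1 probe set and 1 of Igfbp7 were at the floor on all 24 arrays, the third of Igfbp7 on 20, and the second of Cd93 on 7. The second Eng probe set was at the floor on 10 arrays and had differences of -0.61, -0.15, -1.08 and -0.97 at days 7, 8, 10 and 12. Its room air means were 8.37 ± 0.49 at day 10 and 8.25 ± 0.15 at day 12, against 7.29 ± 0.22 and 7.27 ± 0.29 in hyperoxia (SD, n = 3). The dim Cd93 probe set had differences between -0.17 and 0.09 and did not follow the bright one. Its mean was 7.23, close to the floor of 7.10, which left little room to show a fall.

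Set by age, the late group means stood further above their day 7 level in room air than in hyperoxia for 7 of the 8 genes at day 12, with Cd34 as the exception. From day 7 to day 10 the group means of the 8 genes changed by a median of -0.10 in hyperoxia (range -0.60 to 0.09) and of 0.58 in room air (range 0.17 to 0.81). From day 7 to day 12 the median was 0.16 in hyperoxia (range -0.03 to 0.54) and 0.55 in room air (range 0.12 to 0.90). In hyperoxia, Tm4sf1 stood at -0.54 and Mgp at -0.60 against day 7 at day 10, and at 0.43 and 0.14 at day 12. Igfbp7 stood at -0.23 and then at 0.54. Cd93, Eng and Ramp2 ended at -0.01, -0.02 and -0.03, at their day 7 level. These changes use the arrays by which the genes were chosen and have no test.

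**Figure D3:**
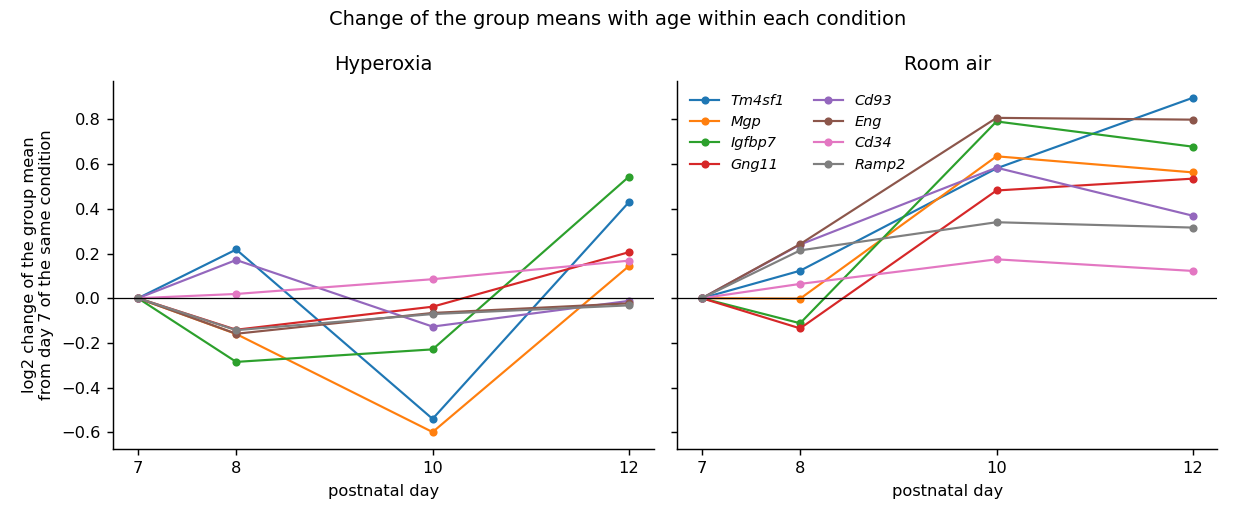
Log2 change of the group mean from day 7 of the same condition, by postnatal day, for hyperoxia (left) and room air (right). In room air all 8 genes are above their day 7 mean at days 10 and 12, while in hyperoxia Tm4sf1 and Mgp dip to -0.54 and -0.60 at day 10.

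A test whose contrast is separate from the oxygen difference of each day is the effect of age averaged over both conditions. The average includes the hyperoxia arrays, so a lower late signal in them makes it smaller. Between day 7 and day 12, Tm4sf1 rose by 0.66 ± 0.17 (limma adjusted p = 0.00647), Igfbp7 by 0.61 ± 0.17 (limma adjusted p = 0.0134) and Gng11 by 0.37 ± 0.10 (limma adjusted p = 0.0132). Of all tested probe sets 11.4% were called higher and 11.5% lower. The other 5 genes did not pass, with Eng at 0.39 ± 0.15 and Mgp at 0.35 ± 0.17, and Cd93, Cd34 and Ramp2 between 0.14 and 0.18. The value of Eng averages 0.80 in room air and -0.02 in hyperoxia, so its missing call does not describe age in room air alone. An F test of any difference among the 4 ages called the same 3 genes, at adjusted p of 0.0192 for Tm4sf1, 0.00849 for Igfbp7 and 0.00498 for Gng11 (17.5% of all tested). Between days 8 and 10, limma called 0 of the 8 (3 higher at an unadjusted p under 0.05). Of all tested probe sets 1.76% were called higher and 1.13% lower there, and 7.32% were higher at an unadjusted p under 0.05. Between days 7 and 8 limma called 0 (0 at an unadjusted p under 0.05, with 0% of all tested called either way). Between days 10 and 12 it called 0 as well (1 higher at an unadjusted p under 0.05, as were 6.1% of all tested, with 0.663% called higher and 0.789% lower).

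The 3 calls changed with the arrays kept. Without replicate 3 in all groups limma called 0 of the 8 (adjusted p = 0.11 for Tm4sf1, 0.153 for Igfbp7 and 0.136 for Gng11), without replicate 1 it called 1, Igfbp7 (adjusted p = 0.0213), and without replicate 2 it called 3, with Mgp (adjusted p = 0.0393) in place of Igfbp7 (adjusted p = 0.0744). Over the same interval 5 of 9 tested pigment epithelium and melanocyte genes were called higher, as were 11.4% of all tested probe sets. The pigment epithelium is a tissue next to the retina. Of an endothelial list described below, 6 of 28 tested genes were called higher and 0 lower. So were 6 of 12 markers of retinal neurons and Müller glia, a list that shares Rlbp1 with the pigment list. The counts were 2 of 4 for astrocytes, 2 of 7 for pericytes and smooth muscle and 1 of 6 for connective tissue. Microglia and macrophages had 1 of 10 higher and 1 lower. Lens had 0 of 15 and red blood cells 0 of 1. The summed intensity of 10 measured pigment genes lay between 23700 and 57200 in hyperoxia at day 12 and between 29800 and 46300 in room air, and at day 7 between 11300 and 19800 in hyperoxia and between 13200 and 33100 in room air. No pigment marker was at the floor on all arrays. With lens and pigment scores of each array in the fit, the rise was 0.61 ± 0.22 for Tm4sf1 (adjusted p = 0.0788), 0.13 ± 0.13 for Igfbp7 (adjusted p = 0.579) and 0.16 ± 0.11 for Gng11 (adjusted p = 0.385), and 0 of the 8 were called. The mean pigment score itself went from 9.84 at day 7 to 10.99 at day 12 in hyperoxia, and from 10.31 to 10.90 in room air. Age and pigment score therefore cannot be told apart in this fit.

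The day 10 oxygen differences moved little in that same fit. They were -1.57 ± 0.23 for Tm4sf1, -1.38 ± 0.14 for Igfbp7, -1.32 ± 0.23 for Mgp and -1.30 ± 0.29 for Cd93, and the median of the 8 was -1.13. The early differences moved more. The day 7 median of the 8 was -0.16 in it, with Mgp at 0.02 ± 0.24 and Igfbp7 at -0.04 ± 0.14, and the day 8 difference of Igfbp7 was -0.10 ± 0.15. Lens RNA varied most between arrays: the summed intensity of 15 measured lens genes ranged from 3950 to 12300 in hyperoxia at day 8, against 9050 to 167000 in room air, and at day 10 from 34100 to 219000 in hyperoxia, against 19800 to 133000 in room air. No lens marker was at the floor on all arrays.

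Markers of cells in and around vessels were set beside the 8 genes. Averaged over the 4 ages, limma called 1 of 7 tested pericyte and smooth muscle genes lower and 0 higher. At an unadjusted p under 0.05, 4 were lower and 1 higher. Of all tested probe sets 0.48% were called lower, and 5.11% were lower and 3.85% higher at an unadjusted p under 0.05. At day 10 limma called 0 of 7 (3 lower at an unadjusted p under 0.05, as were 6.27% of all tested). The median difference of the 7 was -0.13 at day 7, -0.245 at day 8, -0.14 at day 10 and -0.35 at day 12. The summed intensity of 11 measured pericyte and smooth muscle genes lay between 7570 and 8420 in hyperoxia at day 10, against 9510 to 13800 in room air, with Cnn1 at the floor on all arrays. For 9 measured connective tissue genes the ranges at day 10 were 3310 to 3680 in hyperoxia and 3410 to 4120 in room air, with none at the floor on all arrays. For 12 measured microglia and macrophage genes they were 10300 to 10400 in hyperoxia and 9380 to 10900 in room air, also with none at the floor on all arrays. The 4 measured red blood cell genes summed to 687 to 876 in hyperoxia at day 7, against 960 to 1380 in room air. At day 8 the sums were 722 to 941 in hyperoxia and 774 to 1510 in room air. They were 528 to 873 and 684 to 1320 at day 10, and 397 to 670 and 1080 to 1540 at day 12. The ranges overlapped at days 8 and 10 and were apart at days 7 and 12. No gene of the 4 was at the floor on all arrays. Alas2, the erythroid enzyme of heme synthesis and the 1 tested gene of that list, was called lower over the 4 ages, at -1.08. Its difference was -1.07 at day 7, -0.16 at day 8, -1.27 at day 10 and -1.81 at day 12. The part of these cells in the differences was not tested.

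Deviations of arrays from their own group mean do not use the group differences. Over the 24 arrays, the 6 correlations of these deviations among Cd93, Eng, Cd34 and Ramp2 ran from 0.423 to 0.655, with a median of 0.574 and Cd93 and Eng highest. Among Tm4sf1, Mgp, Igfbp7 and Gng11 the 6 correlations ran from 0.094 to 0.376. Between the sets, 10 of 16 were positive, from -0.288 for Igfbp7 with Cd34 to 0.505 for Mgp with Ramp2. This division was made after the values were seen, and all points share the same RNA samples and scaling.

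The division moved with the replicate number. Arrays numbered replicate 3 lay below their group mean in 8 of 8 groups for Cd93, Eng and Ramp2, in 7 for Mgp and in 6 for Cd34, but in 3 or 4 for Tm4sf1, Igfbp7 and Gng11. With the mean deviation of each replicate number removed, a step added after the values were seen, the correlations among Cd93, Eng, Cd34 and Ramp2 ran from -0.18 to 0.273, with a median of 0.169. Those among the other 4 genes ran from 0.114 to 0.51, with a median of 0.356. The higher correlations among Cd93, Eng, Cd34 and Ramp2 were thus not seen once replicate number was taken out. What the replicate numbers stand for is not given in the labels.

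**Figure D4:**
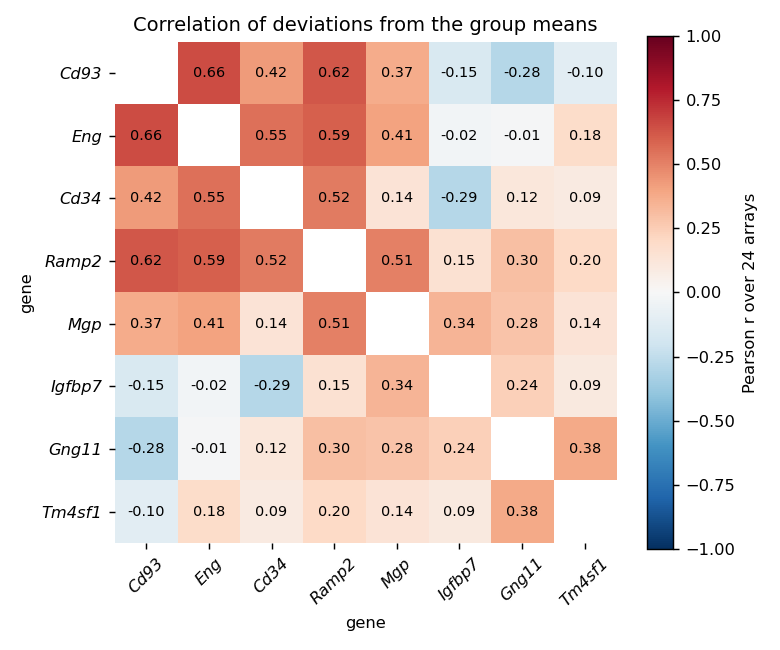
Pearson correlation over 24 arrays of the deviations of each pair of genes from their group means, on a scale from -1 (blue) to 1 (red). The block of Cd93, Eng, Cd34 and Ramp2 at the upper left holds values from 0.42 to 0.66, and Igfbp7 is below 0 with Cd93, Eng and Cd34. The shift of replicate 3 arrays is not removed here.

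The mean deviation of the 8 genes correlated with that of the pericyte and smooth muscle score at 0.809, of the microglia and macrophage score at 0.721 and of the astrocyte score at 0.501. For the pigment score it was 0.484, for the connective tissue score 0.379, for retinal neurons and Müller glia 0.193, for red blood cells 0.187, and for lens -0.318. For single probe sets the median over all tested was 0.034, and 6.85% were above 0.5. Most of the scores average several genes, so single probe sets are not a like background for them. With the mean of each replicate number removed, the values were 0.825 for the pericyte and smooth muscle score, 0.653 for pigment, 0.589 for connective tissue, 0.534 for microglia and macrophages and 0.356 for astrocytes. By gene, the pigment score correlated with Igfbp7 at 0.689 and with Gng11 at 0.670, but with Cd93 at -0.242 and Cd34 at -0.043. Arrays numbered replicate 3 had a mean of the 8 genes below their group mean in 8 of 8 groups, by 0.12 on average.

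Genes of related function were set beside the 8. Of 28 tested genes of an endothelial list that leaves the 8 out, 4 fell in hyperoxia averaged over the 4 ages, 0 rose, and 13 were lower at an unadjusted p under 0.05. Of all tested probe sets, 0.48% were called lower and 5.11% were lower at an unadjusted p under 0.05. Cldn5, a tight junction protein, fell by 0.66 ± 0.10 (limma adjusted p = 0.00104). Aplnr, the apelin receptor, fell by 0.79 ± 0.15 (limma adjusted p = 0.0113). The endothelial transcription factors Sox18 and Sox17 fell by 0.64 ± 0.13 and 0.43 ± 0.09 (limma adjusted p = 0.0286 and 0.0404). Kdr, the main VEGF receptor, stood at 0.01 ± 0.08, Cdh5, the cadherin of endothelial junctions, at -0.21 ± 0.09, and Pecam1 at -0.54 ± 0.13 (limma adjusted p = 0.0852). None of these passed. At day 10 alone Pecam1 was at -1.19 ± 0.26 and Cdh5 at -0.34 ± 0.18 (limma adjusted p = 0.105 and 0.483). The list's median was -0.21, beside -0.60 for the 8 genes and -0.0019 for all tested genes. At day 10 the list's median was -0.39, with 24 of 28 negative and 0 passing in limma (10 lower at an unadjusted p under 0.05), where 0.0568% of all tested probe sets were called lower and 6.27% were lower at an unadjusted p under 0.05.

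The count of 4 was 0 without replicate 1 or without replicate 2 in all groups. It was 2 without any 1 of these arrays: hyperoxia day 7 replicate 3, hyperoxia day 8 replicate 2 or 3, hyperoxia day 10 replicate 2, hyperoxia day 12 replicate 1 or 3, room air day 7 replicate 1 or 2, and room air day 12 replicate 1 or 2.

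**Figure D5:**
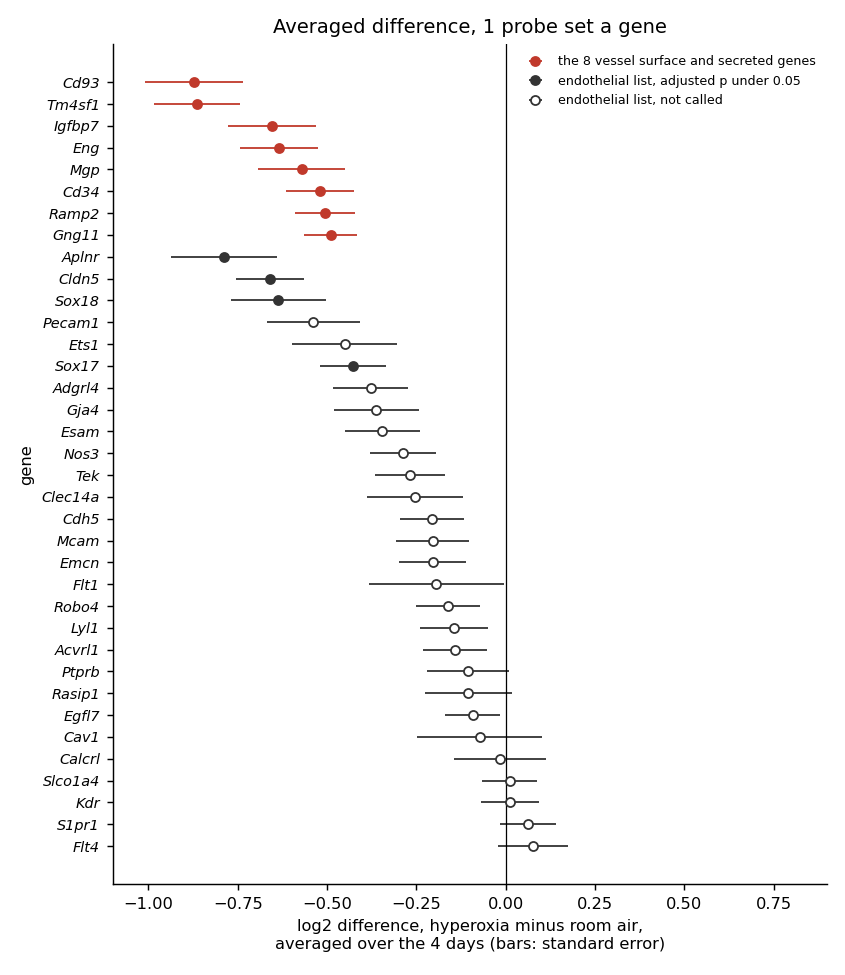
Log2 difference, hyperoxia minus room air, averaged over the 4 ages, of the 8 genes (red, above) and of 28 tested genes of the endothelial list (black, below), with standard errors. The 8 genes lie between -0.87 and -0.49, and filled black points are the 4 list genes that fell.

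Averaged over the 4 ages, the partners of the 8 genes were nearer to 0. Calcrl, which Ramp2 joins in the adrenomedullin receptor, had an averaged difference of -0.02 ± 0.13, beside -0.51 ± 0.08 for Ramp2. By age, Calcrl was at 0.02, -0.32, 0.45 and -0.22 at days 7, 8, 10 and 12 (each ± 0.26). Its group means lay between 7.67 and 8.18, near the floor of 7.10, which limits the fall it could show. The other partners of that receptor family, Ramp1 and Ramp3, were at 0.16 ± 0.12 and -0.05 ± 0.09. Their ligand gene Adm was too dim to test: it was at the floor on 12 of 12 hyperoxia arrays and on 8 of 12 room air arrays, and the 4 above it were 2 of day 8 and 2 of day 10. Acvrl1, the receptor that Eng assists, was at -0.14 ± 0.09, beside -0.63 ± 0.11 for Eng. By age, Acvrl1 was at 0.14 and 0.005 at days 7 and 8, then at -0.46 and -0.25 at days 10 and 12 (each ± 0.18). It passed at no age. Its late minus early difference was -0.43 ± 0.18, beside -0.65 ± 0.22 for Eng. Averaged over the 4 ages, none of the 3 tested genes of the adrenomedullin list passed in either direction (0 at an unadjusted p under 0.05). Ramp1 differed in sign between ages, with 0.63 ± 0.235 at day 7 and -0.54 ± 0.235 at day 10.

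Of 20 tested genes of endothelial BMP and TGF-beta signalling, limma called 0 in either direction (1 lower at an unadjusted p under 0.05, Tgfb1 at -0.34 ± 0.13), and 10 of 20 were negative. Tgfbr2, a receptor, was at -0.18 ± 0.12, and Id1, a target of BMP signals, at -0.13 ± 0.10. With age, 6 of the 20 fell between day 7 and day 12 and 1, the ligand gene Bmp4, rose by 0.72 ± 0.22 (limma adjusted p = 0.021), where 11.5% of all tested probe sets were called lower and 11.4% higher, while Eng itself did not pass.

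Relatives of the other genes, also averaged over the 4 ages, gave 0 calls as well in limma. Of 7 tested G protein gamma subunits, Gng10 was higher at 0.30 ± 0.09 (adjusted p = 0.196, the 1 at an unadjusted p under 0.05), and Gng13, Gng12 and Gng3 were at -0.12 ± 0.08, -0.06 ± 0.06 and -0.05 ± 0.06, beside -0.49 ± 0.07 for Gng11. In the IGF binding protein family, Igfbp2, Igfbp6, Igfbp4 and Igfbp5 were at -0.17 ± 0.08, 0.16 ± 0.12, -0.06 ± 0.07 and -0.07 ± 0.10 (0 of 4 at an unadjusted p under 0.05), beside -0.65 ± 0.12 for Igfbp7. Of the CD93 group, Clec14a, a related endothelial lectin, was at -0.26 ± 0.13, Gipc1 at -0.07 ± 0.05 and Msn (moesin) at 0.03 ± 0.08 (0 of 3 at an unadjusted p under 0.05). Podxl, a sialomucin like Cd34, was at 0.03 ± 0.05. At day 10 alone these lists had 0 calls too. The negative genes were then 4 of 7 G protein gamma subunits, 3 of 4 IGF binding proteins and 3 of 3 of the CD93 group. Gng13 was at -0.45 ± 0.165, Clec14a at -0.41 ± 0.27 and Gng10 at 0.63 ± 0.175 at that age.

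The Gla protein list, which holds enzymes of the vitamin K cycle that Mgp needs to mature, had 4 tested genes and 0 calls (0 at an unadjusted p under 0.05). Vkorc1 and Ggcx of that cycle were at 0.17 ± 0.10 and -0.07 ± 0.07, and the Gla proteins Pros1 and Gas6 at -0.09 ± 0.08 and 0.00 ± 0.09. These are averages over the 4 ages. At day 10, 3 of the 4 were negative with 0 calls, with Pros1 at -0.44 ± 0.16 and Vkorc1 at 0.29 ± 0.205. The 3 measured relatives of Tm4sf1 were too dim to test. The differences between each of the 8 genes and its relatives were not tested.

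The genes whose signal over the 24 arrays was most like the mean of the 8 were Rgs5, a regulator of G protein signalling abundant in pericytes (Pearson r = 0.898), and Cldn5 (r = 0.894). Slc39a8, a metal ion transporter, Fzd6, a Wnt receptor, AU021092, Pdlim3, Sox18, Trappc6a, Cnn2 and Srgn followed, at 0.879 to 0.838. These correlations include the group differences and share the arrays, so they are a description. Taken gene by gene, Igfbp7 was most like the basement membrane collagens Col4a2 (r = 0.930) and Col4a1 (r = 0.887), and Mgp most like the endothelial adhesion protein Pecam1 (r = 0.868) and the small GTPase Rras (r = 0.810). Cd93 and Cd34 were most like Aplnr (r = 0.858 and 0.855), and Ramp2 most like Sox18 (r = 0.899) and Aplnr (r = 0.874). The second genes for Cd93 and Cd34 were Creld2 (r = 0.846) and the glycolytic enzyme Tpi1 (r = 0.832). Eng was most like Rgs5 (r = 0.870) and Fzd6 (r = 0.869), Gng11 most like the small GTPases Rhoj (r = 0.834) and Rras (r = 0.829), and Tm4sf1 most like Trappc6a (r = 0.787) and Ifitm3 (r = 0.773).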

How the data were processed

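The deposited table gives 1 linear intensity per probe set for each of 24 arrays, and the software the authors used is not given in the sources used here. The trimmed means of the arrays, without the 2% of values at each end, lay between 1500.35 and 1500.4, which means that the authors' intensities came already scaled to 1 level. Array medians ranged from 570.1 to 679.7, a span of 0.253 on the log2 scale. The number of arrays limits the precision.

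After 64 control probe sets were left out, intensities were quantile normalized, raised to a floor at the 20th percentile (137.4) and taken to log2. Probe sets with a mean under the 30th percentile were removed, which left 15838. All comparisons were contrasts in 1 limma fit (limma 3.58.1, R 4.3.3) of 8 group means, with 16 residual degrees of freedom and Benjamini-Hochberg adjustment over all tested probe sets, called under 0.05. Lists count each gene by its brightest probe set. Figures used matplotlib 3.10.9. The fit was tested on simulated data.

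Of 22690 probe sets, 20380 had 1 gene symbol in the platform annotation, 691 named several and 1555 named none. A RefSeq gene was found by identifier for 20351 of those with 1 symbol. The 8 genes, the gene lists and the naming rule were chosen with earlier results of these data known. Named genes are the 8, their receptor partners, the 4 lowest p-values of each list in the averaged oxygen difference, and the 10 nearest by correlation, with 2 per gene; other names were added after their values were seen. Same-numbered hyperoxia and room air arrays of a day deviated together in 5 of 12 pairs (correlation over 0.1), so replicate numbers were not taken to pair samples. The median correlation was 0.06 over these 12 pairs and -0.037 over 24 pairs of other numbers. The printed standard errors are without a replicate block, so the shift of arrays numbered replicate 3 stays in them. With the block, that of day 10 was 0.158 for Cd93 and 0.171 for Eng, against 0.277 and 0.219. It was also smaller for Mgp, Gng11, Cd34 and Ramp2, but larger for Tm4sf1 (0.245 against 0.237) and Igfbp7 (0.247 against 0.243). Alternatives were other scaling, floors, filters, priors, array sets, a replicate block, left-out arrays and lens and pigment covariates. Removing the mean of each replicate number from the deviations was chosen after seeing the data.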

Additional observations from a re-analysis of the deposited data

How the results depend on the processing

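Across 37 alternative settings, the 1462 recomputed oxygen differences of the single genes kept within 1 replicate SD of the reported value in 1457 cases and were negative in 1455. The genes were chosen by these differences, and leaving out an array of another day does not change the difference of a day. These counts therefore describe the settings and are not a test. The count of the 8 genes called for age between day 7 and day 12, 3 as reported, ranged from 0 to 4 when replicates or single arrays were left out. It was 0 with lens and pigment scores as covariates and 4 with the replicate number as a block, where Eng passed (adjusted p = 0.0245). Between days 8 and 10 the block also gave 0. The other age tests were not run with the block. The day 8 to day 10 count was 0 under every alternative run. The endothelial count of 4 ranged from 0 to 4 with left-out arrays and was 2 with the covariates, 5 with no filter or with the replicate block and 6 when a gene's tested probe sets were averaged. With left-out arrays, the median oxygen difference of the 8 genes ranged from -0.41 to -0.18 at day 7 (-0.16 with the covariates), -0.62 to -0.34 at day 8, -1.25 to -0.93 at day 10, -0.70 to -0.52 at day 12 and -0.64 to -0.56 averaged. With the filter at the 50th percentile Tm4sf1 and Cd34 were not tested. The median correlation of deviations among Cd93, Eng, Cd34 and Ramp2 was 0.574, and 0.169 with the mean of each replicate number removed. The cause of these shifts was not tested.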
